A study of Mus musculus with 24 samples.

Results

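Dendritic cells of the wild-derived mouse strain PWD and of the classical laboratory strain B6 were compared after exposure to endotoxin. The comparison takes the 4 libraries labelled PWD_LPS and the 4 labelled B6_LPS, 8 of the 24 libraries of the series, across all 55291 gene symbols of the deposited table. Bone marrow of individual mice was grown for 7 days with GM-CSF (granulocyte-macrophage colony-stimulating factor) at 20 ng/ml, each library coming from the culture of 1 mouse. Both groups then received lipopolysaccharide (LPS) of E. coli 0111:B4 at 10 ng/ml for 6 hours. Neither group carries a transgene or a deletion in the labels, and no age of the mice is stated. Groups set beside them were the LPS-treated cells of a strain labelled C57 (C57_LPS, 4 libraries; the labels do not say how it differs from B6) and the untreated cells of both strains (PWD_Untreated and B6_Untreated, 4 libraries each).

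LPS is the lipid-anchored sugar of the outer membrane of Gram-negative bacteria. The proteins CD14 and MD-2 hand it to Toll-like receptor 4 (TLR4), which signals through the adaptor MyD88 to NF-kB and inflammatory cytokines, and through the adaptor TRIF to interferon beta. Interferon beta then acts back on the cells through its receptor and a complex of transcription factors that includes IRF9 and binds short repeats in the promoters of interferon-stimulated genes. Marrow cells grown in GM-CSF are a mixture of dendritic-like and macrophage-like cells rather than one pure type. PWD was derived from wild Mus musculus musculus, a subspecies that differs in sequence at many sites from the mostly domesticus genome of B6, on which the mouse reference is built.

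Values are TPM, a length-corrected share of each library's RNA. Read depth is not kept in TPM and is unknown here. Where 4 values are given for a group, they are those of replicates 1 to 4 in order. Differences are PWD_LPS minus B6_LPS on log2(TPM + 1), where 1 unit is a doubling at high levels and understates the fold of genes near 1 TPM. A gene is called when the adjusted p of limma (Benjamini-Hochberg over the 13246 genes that reached 1 TPM in 4 or more libraries) is under 0.05. Calls were made for 9091 genes, 68.6% of those tested, with 6580 higher in PWD (49.7%) and 2511 lower (19.0%). The typical gene stood 0.28 higher in PWD, and this median shift goes with the scaling: median-of-ratios scaling, which moves the median to 0.02, gave 4724 higher and 4519 lower, and quantile normalization 4624 and 4534. Differences near 0.28 are therefore close to the middle of all genes. At an absolute log2 difference of 1 or more, 1937 genes were higher (14.6%) and 956 lower (7.22%), and the 4 libraries of each strain did not overlap in 8727 genes (65.9%).

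**Figure D1:**
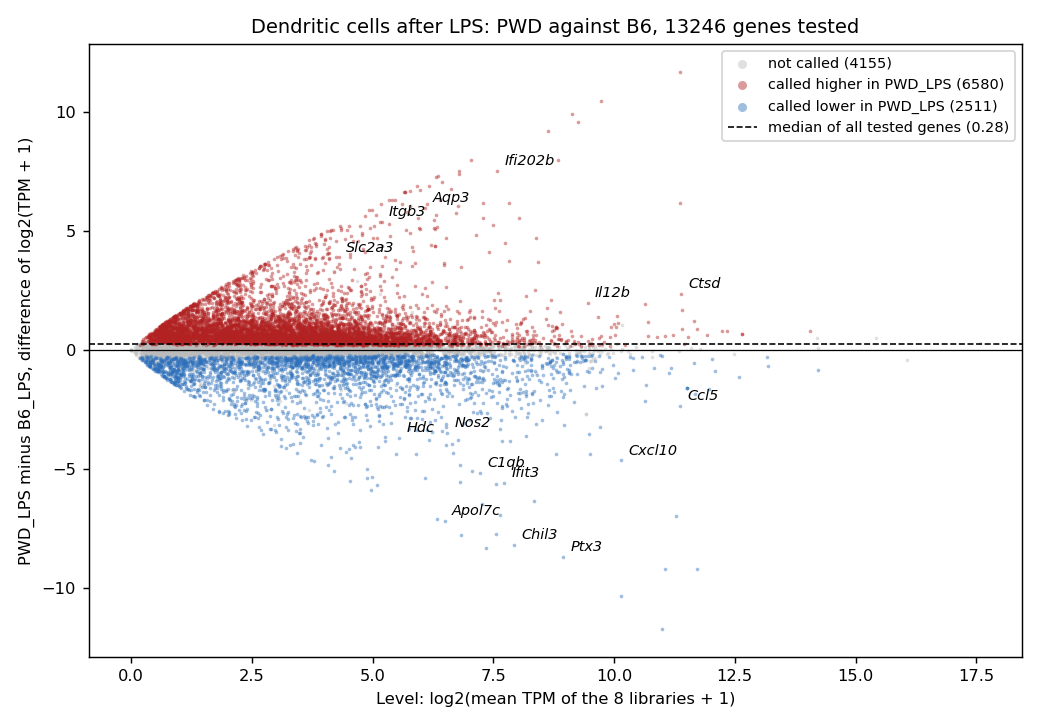
Difference between PWD_LPS and B6_LPS, on log2(TPM + 1), against the level of each of the 13246 genes tested, with called genes in red (6580 higher in PWD) and blue (2511 lower). The dashed line is the median of all genes at 0.28, and named genes reach from Ptx3 at -8.67 to Ifi202b at 7.54; unnamed models and pseudogenes make up most of the points above 5.

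The libraries of each strain resembled each other across genes with r of 0.982 to 0.988 in PWD_LPS and 0.986 to 0.990 in B6_LPS, against 0.855 to 0.864 between the strains. Structural RNA (9 abundant noncoding RNA genes) took 36.3% to 39.1% of TPM in PWD_LPS and 33.2% to 41.2% in B6_LPS. Pseudogenes took 3.47% to 3.95% in PWD_LPS and 1.19% to 1.35% in B6_LPS, ranges that do not overlap. Of the 66 genes called higher in PWD by 5 log2 units or more, 42 were annotated pseudogenes, and of the 27 lower by as much, 2 were. The build named in the submitters' processing notes is mm10, which rests on B6. The part of strain sequence differences in any gene's value was not tested. Some members of families of near-identical copies are named below as uncertain. That marking is not complete, and a gene without it is not thereby certain. Libraries numbered 1 and 2 of each group were male and 3 and 4 female by Xist. They are called mice 1 and 2 and mice 3 and 4 here, without saying that LPS and untreated libraries of a number share a mouse. The count of calls was 8260 with mice 1 and 2 alone and 8160 with mice 3 and 4 alone.

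The dendritic cell label was checked against its defining markers. Itgax, which encodes CD11c, stood at 304, 324, 314 and 353 TPM in PWD_LPS and 243, 208, 250 and 249 TPM in B6_LPS (0.45, and 0.11 with median-of-ratios scaling), and the MHC class II chaperone Cd74 at 2392, 2898, 3706 and 3409 TPM in PWD_LPS and 6377, 5196, 5586 and 5518 TPM in B6_LPS. The markers of conventional dendritic cell subsets Flt3, Xcr1, Clec9a and Cd209a were near 0 in both strains, with means of 0.0539 and 0.297 TPM for Clec9a and 0.201 and 0.48 TPM for Cd209a. The macrophage genes Csf1r (136 and 127 TPM) and Adgre1 (119 and 101 TPM) were present in both strains and were not called (limma adjusted p = 0.448 and 0.132). They do not stand for the macrophage and monocyte markers as a set, of which 12 of 18 tested were lower in PWD and 4 higher. Csf1r was called lower with median-of-ratios scaling (-0.24) and higher after quantile normalization (0.18), and Adgre1 was called higher after the latter (0.28). In bulk RNA, fewer cells of a type and less RNA per cell cannot be told apart.

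Most interferon-stimulated genes were lower in PWD after LPS. These genes encode antiviral proteins that block translation, degrade RNA or mark viral proteins. Of 61 tested 53 were lower, 4 higher and 4 not called, with a median of -1.70 against 0.28 over all genes; with median-of-ratios scaling 56 were lower and 2 higher. Promoters of 4 of them, Ifit3, Ifit1, Isg15 and Rsad2, are shown because they carry the repeat that the interferon-activated complex is known to bind, searched on both strands as the direct repeat of GAAA with any 2 bases between. The windows are from RefSeq on GRCm38.p6, the B6 sequence, 250 bases before to 50 after the start of each gene, 5′ to 3′ on the gene's own strand, with matches in capitals. They lie at chr19:34583279-34583578 (+) for Ifit3, chr19:34640639-34640938 (+) for Ifit1, chr4:156200769-156201068 (-) for Isg15 and chr12:26456403-26456702 (-) for Rsad2.
Ifit3: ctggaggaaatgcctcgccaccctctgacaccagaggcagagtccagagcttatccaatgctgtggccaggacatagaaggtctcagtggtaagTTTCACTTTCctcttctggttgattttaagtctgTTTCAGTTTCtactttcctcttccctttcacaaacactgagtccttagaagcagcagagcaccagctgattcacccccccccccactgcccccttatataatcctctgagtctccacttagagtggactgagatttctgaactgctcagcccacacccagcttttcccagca
Ifit1: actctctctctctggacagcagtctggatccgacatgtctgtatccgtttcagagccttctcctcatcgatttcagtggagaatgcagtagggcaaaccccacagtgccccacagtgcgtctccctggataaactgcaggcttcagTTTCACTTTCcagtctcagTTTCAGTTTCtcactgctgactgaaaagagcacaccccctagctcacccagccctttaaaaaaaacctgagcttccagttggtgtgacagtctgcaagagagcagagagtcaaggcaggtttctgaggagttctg
Isg15: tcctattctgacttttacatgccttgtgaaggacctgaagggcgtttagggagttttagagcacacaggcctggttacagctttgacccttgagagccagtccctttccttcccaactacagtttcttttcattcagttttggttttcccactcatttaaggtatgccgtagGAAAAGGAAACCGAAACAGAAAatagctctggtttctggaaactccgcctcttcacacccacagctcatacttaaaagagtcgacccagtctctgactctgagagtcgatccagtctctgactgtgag
Rsad2: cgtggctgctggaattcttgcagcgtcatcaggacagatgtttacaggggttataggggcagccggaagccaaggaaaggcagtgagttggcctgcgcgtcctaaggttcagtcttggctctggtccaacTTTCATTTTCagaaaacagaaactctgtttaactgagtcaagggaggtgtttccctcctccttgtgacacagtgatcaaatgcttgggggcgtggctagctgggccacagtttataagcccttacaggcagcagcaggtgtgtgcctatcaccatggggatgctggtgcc
Ifit3 and Ifit1 hold 2 matches each, Isg15 holds 3 that overlap and Rsad2 holds 1, all within 156 bases before the start; the same letters are in 3.44% of all 32851 promoter windows. A match is a string of letters and not a measured site, and the PWD sequence was not used here.

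The 4 genes with these promoters were each lower in PWD, but by very different amounts. Ifit3, an RNA-binding antiviral protein, stood at 6.13, 7.64, 9.54 and 7.91 TPM in PWD_LPS and 393, 442, 431 and 383 TPM in B6_LPS, a difference of -5.56 (SE 0.16, limma adjusted p = 1.5e-20). Ifit1, its neighbour on chromosome 19, stood at 136, 195, 190 and 165 TPM in PWD_LPS and 633, 627, 756 and 608 TPM in B6_LPS, a difference of -1.94 (SE 0.16, limma adjusted p = 2e-10). No PWD library reached the lowest B6 library in either gene, and the strains did not overlap in 65.9% of all genes tested. Ifit genes are close copies of each other, so the values of single members are uncertain. Isg15, a ubiquitin-like modifier, stood at 310, 441, 451 and 399 TPM in PWD_LPS and 1164, 1154, 1205 and 1210 TPM in B6_LPS (-1.58, SE 0.17, limma adjusted p = 1.4e-08). Rsad2, or viperin, which makes a chain-terminating nucleotide, stood at 85.9, 131, 132 and 113 TPM in PWD_LPS and 1221, 1262, 1511 and 1283 TPM in B6_LPS (-3.52, SE 0.18, limma adjusted p = 5.3e-14). In all 4 genes PWD_LPS replicate 1 was the lowest PWD library.

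The same 4 genes differed in how far LPS itself had moved them. Without LPS the strain difference was -5.24 for Ifit3, -4.44 for Ifit1, -3.48 for Isg15 and -4.07 for Rsad2. The difference of LPS responses, PWD minus B6, was 2.5 (SE 0.23, limma adjusted p = 2.6e-08) for Ifit1 and 1.91 (SE 0.24, limma adjusted p = 2.3e-06) for Isg15, so that both rose by more log2 units in PWD and yet ended lower. It was not called for Ifit3 (-0.33, limma adjusted p = 0.311) or Rsad2 (0.55, limma adjusted p = 0.128). Both depend on the processing: Ifit3 gave -0.68 and a call with median-of-ratios scaling and 0.77 without one with a pseudocount of 0.1 TPM, and Rsad2 was called at 0.71 without structural RNA and 1.19 after quantile normalization. Over the list, 34 of 61 members had a called difference of responses above 0 and 5 below, where 16.0% and 7.50% of all tested genes did. The list gave 33 above and 2 below with mice 1 and 2 alone, 33 and 4 with mice 3 and 4, and 31 and 9 with median-of-ratios scaling. Over all genes the split turned between male and female libraries, with 3671 above 0 and 520 below with mice 1 and 2, and 808 and 1366 with mice 3 and 4. Number and sex cannot be told apart in that split. PWD_Untreated libraries of mice 1 and 2 held 41.9% and 40.3% structural RNA and those of mice 3 and 4 29.3% and 28.8%, whose part in that split was not tested.

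Rtp4, an interferon-induced chaperone-like protein, also rose by more log2 units in PWD and ended lower, at 64.8, 87.7, 81.9 and 72.2 TPM in PWD_LPS and 166, 179, 171 and 169 TPM in B6_LPS, a difference of -1.16 (SE 0.11, limma adjusted p = 1.1e-09). Untreated means had been 2.9 TPM in PWD and 67.2 TPM in B6, and the difference of responses was 2.96 (SE 0.16, limma adjusted p = 3.6e-13). Means after LPS were 76.7 and 171 TPM, so in TPM the rise was larger in B6. Mx2, a dynamin-like antiviral GTPase, was lower in untreated PWD cells (-2.31) and higher after LPS, at 66.4, 101, 93.6 and 81.5 TPM in PWD_LPS and 49.5, 54, 59.5 and 48.7 TPM in B6_LPS (0.67, SE 0.16, limma adjusted p = 0.00068). Its PWD libraries all lay above those of B6, and with median-of-ratios scaling the difference was 0.34 and not called. Ifi44l was listed at 0 in all 4 B6_LPS libraries and all C57_LPS libraries, and at 10.5, 16.4, 15.5 and 14.2 TPM in PWD_LPS. Ifi27l2a went the other way, listed at 0 in all PWD_LPS libraries and at 279, 277, 346 and 387 TPM in B6_LPS. Whether strain sequence differences or related genes enter the values of Ifi44l and Ifi27l2a was not tested, so both are uncertain.

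Genes that make and relay the interferon signal were lower in part. Ifnb1, interferon beta itself, was low in every library, at 0.298, 0.646, 1.05 and 0.48 TPM in PWD_LPS and 1.97, 4.48, 4.23 and 3.05 TPM in B6_LPS, a difference of -1.43 (SE 0.22, limma adjusted p = 2.4e-06). The receptor chains stood at 108 against 80.8 TPM for Ifnar1 (0.41, SE 0.12, limma adjusted p = 0.00324), and 70.2 against 64.6 TPM for Ifnar2, which was not called. With median-of-ratios scaling Ifnar1 was not called either (0.07), and Ifnar2 turned to -0.22, a call. Downstream, the transcription factor Stat2 was lower at a mean of 68.1 against 178 TPM (-1.37, SE 0.12, limma adjusted p = 2.2e-10), and Irf9 was not called (-0.18, limma adjusted p = 0.206; -0.52 with median-of-ratios scaling). Irf7, which amplifies interferon production, stood at 56.1, 80.9, 69.3 and 67.3 TPM in PWD_LPS and 397, 398, 432 and 388 TPM in B6_LPS (-2.55, SE 0.12, limma adjusted p = 2.8e-16). Of 27 interferon signalling genes 17 were lower and 3 higher (24 and 1 with median-of-ratios scaling).

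The Ifi200 family, DNA-binding proteins that include DNA sensors, was lower in 12 of 13 tested members with a median of -2.80. Ifi205 stood at 5.74, 8.32, 7 and 6.77 TPM in PWD_LPS and 628, 633, 654 and 638 TPM in B6_LPS (-6.34, SE 0.14, limma adjusted p = 2.3e-23). The exception was Ifi202b, the gene with the largest rise among named genes, at 369, 414, 371 and 361 TPM in PWD_LPS and 1.21, 1.87, 0.823 and 0.473 TPM in B6_LPS (7.54, SE 0.16, limma adjusted p = 3.8e-24). The family lies in 1 cluster of near-identical copies on chromosome 1, so each member's value is uncertain. Families of interferon-induced GTPases that attack the membranes around intracellular microbes, the GBP and IRG families, were lower in 14 of 18 members and higher in 2. Iigp1 stood at 0.28, 0.553, 0.453 and 0.579 TPM in PWD_LPS and 25.9, 25.6, 42.6 and 37.2 TPM in B6_LPS (-4.50, SE 0.16, limma adjusted p = 7.3e-19), below 1 TPM in every PWD library. Members of the GBP and IRG families are close copies of each other too, so the value of each, Iigp1 included, is uncertain.

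Sensors of bacteria and nucleic acids did not move as 1 group, 7 of 20 pattern receptors being higher and 11 lower. Of all tested genes 49.7% were higher and 19.0% lower. Cd14, which hands LPS to the receptor, stood at 1130, 1185, 1220 and 1152 TPM in PWD_LPS and 447, 396, 483 and 464 TPM in B6_LPS (1.39, SE 0.10, limma adjusted p = 9.3e-13). Tlr2, the receptor for bacterial lipoproteins, stood at 722, 762, 679 and 680 TPM in PWD_LPS and 229, 212, 267 and 231 TPM in B6_LPS (1.60, SE 0.09, limma adjusted p = 4.8e-15), and its partners Tlr1 (1.36) and Tlr6 (1.30) were higher as well. Tlr8 stood at 76.4 against 15.4 TPM (2.25, SE 0.13, limma adjusted p = 1.1e-14). Tlr3 and Tlr9 were lower. Tlr3, for double-stranded RNA, stood at 0.835, 0.239, 0.301 and 0.337 TPM in PWD_LPS and 18.2, 15.6, 25.3 and 20.7 TPM in B6_LPS (-3.88, SE 0.16, limma adjusted p = 9e-18), under 1 TPM in every PWD library. Tlr9, for bacterial DNA, stood at 3.41 against 15.8 TPM (-1.93, SE 0.17, limma adjusted p = 7.7e-11).

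Of 21 genes of the LPS receptor complex 6 were higher and 8 lower (9 and 8 without structural RNA), where 49.7% of all tested genes were higher and 19.0% lower. Tlr4 itself did not pass the test (-0.03, 95% interval -0.24 to 0.18, limma adjusted p = 0.782). Its difference was 0.04 without B6_LPS replicate 3, and -0.37, a call, with median-of-ratios scaling. Ly96, which encodes MD-2, stood at 16.5, 14.1, 14.5 and 12.7 TPM in PWD_LPS and 20.7, 22.7, 24.9 and 25.2 TPM in B6_LPS (-0.66, SE 0.10, limma adjusted p = 1.5e-06). The adaptor Myd88 was lower, at 85.7 against 133 TPM (-0.63, SE 0.11, limma adjusted p = 8.6e-06), and so was Ticam1, which encodes TRIF, at 9.24 against 12.7 TPM (-0.43, SE 0.10, limma adjusted p = 0.00077). The related pair Ly86 and Cd180, known to dampen TLR4 signalling in dendritic cells, was lower in PWD: Ly86 stood at 4.32, 4.15, 5.4 and 3.78 TPM in PWD_LPS and 36.7, 32.2, 37.2 and 38.5 TPM in B6_LPS (-2.79, SE 0.11, limma adjusted p = 2.6e-18), and Cd180 at 10.8 against 41.4 TPM (-1.84, SE 0.12, limma adjusted p = 1.3e-13). Cd180 had not been called in untreated cells (-0.26, limma adjusted p = 0.0571), and its difference of responses was -1.58 (SE 0.16, limma adjusted p = 6.7e-08).

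Downstream of the receptors, 10 of 16 NF-kB and IkB genes were lower and 1 higher, with a median of -0.31. Map3k14, the kinase that starts the alternative NF-kB pathway, stood at 7.25, 8.81, 7.67 and 7.57 TPM in PWD_LPS and 36.9, 31, 26.9 and 26.9 TPM in B6_LPS (-1.82, SE 0.15, limma adjusted p = 2.8e-11), and the subunit Rel at 44.8, 49.5, 56.6 and 55.1 TPM in PWD_LPS and 102, 84.8, 108 and 106 TPM in B6_LPS (-0.95, SE 0.12, limma adjusted p = 7.9e-08). The brakes on endotoxin signalling split, 12 higher and 11 lower of 29 (10 and 17 with median-of-ratios scaling). For both lists, the shares over all tested genes were 49.7% higher and 19.0% lower. Socs1, which blocks interferon and cytokine receptors, was lower at 15 against 42.2 TPM (-1.43, SE 0.13, limma adjusted p = 2.3e-10), while Irak3, which blocks the MyD88 complex, was higher at 75.2 against 41.9 TPM (0.82, SE 0.13, limma adjusted p = 2.9e-06). Tnfaip3, the deubiquitinase A20, was not called (0.11, limma adjusted p = 0.349), but was called lower with median-of-ratios scaling (-0.23) and higher after quantile normalization (0.30).

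**Figure D2:**
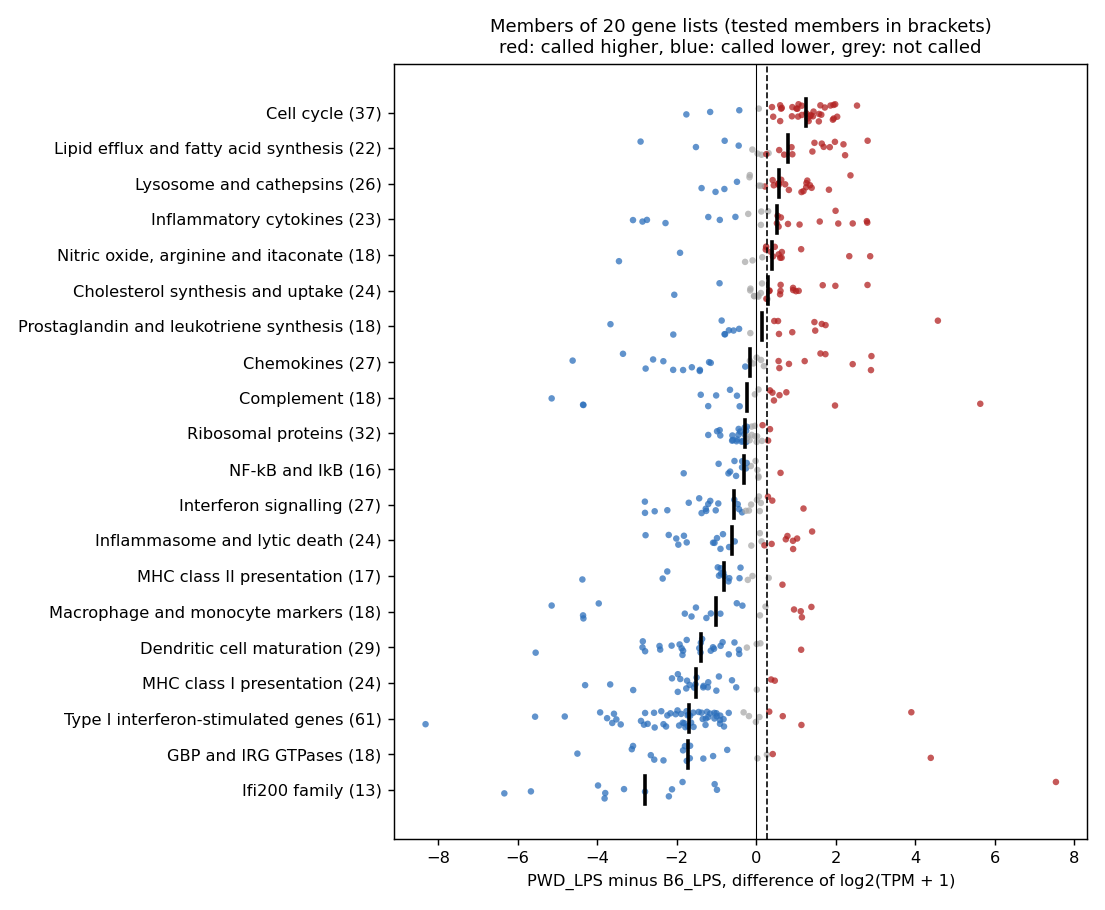
Difference between PWD_LPS and B6_LPS for each tested member of 20 gene lists, with the median of each list as a black bar and the median of all genes (0.28) as a dashed line. The medians of the lists drawn run from -2.80 for the Ifi200 family to 1.26 for the cell cycle, and most lists hold members on both sides of 0.

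Cytokines moved in both directions, also between subunits of the same cytokine. Of 23 inflammatory cytokines 12 were higher and 7 lower (10 and 9 with median-of-ratios scaling), shares near those of all genes on the higher side. In the IL-12 family, heterodimers of 2 chains, the shared chain Il12b (chromosome 11, 44400063 to 44414033) stood at 833, 1073, 1222 and 1298 TPM in PWD_LPS and 278, 149, 340 and 392 TPM in B6_LPS. The lowest PWD library held more than the highest B6 library, a difference of 2.00 (SE 0.23, limma adjusted p = 1.2e-07). Il23a, the second chain of IL-23, which supports Th17 cells, stood at 43.6, 42.4, 52.9 and 56.6 TPM in PWD_LPS and 5.77, 4.53, 6.95 and 7.94 TPM in B6_LPS (2.79, SE 0.15, limma adjusted p = 3.8e-15). Il12a, the second chain of IL-12, which drives Th1 cells, stood at 0.993, 1.29, 1.71 and 1.98 TPM in PWD_LPS and 19.1, 18.6, 13.8 and 16.6 TPM in B6_LPS (-2.86, SE 0.14, limma adjusted p = 8.1e-16). The chains of IL-23 were thus both higher in PWD while the private chain of IL-12 was lower. The strains did not overlap in any of the 3 genes, as in 65.9% of all genes tested.

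IL-27, of the same family, is made of Il27 and Ebi3. Il27 stood at 6.1, 6.96, 8.01 and 7.58 TPM in PWD_LPS and 37, 28.9, 46.5 and 44.3 TPM in B6_LPS (-2.28, SE 0.15, limma adjusted p = 2.5e-13), and Ebi3 was not called (-0.20, limma adjusted p = 0.0565). Ebi3 was called lower with median-of-ratios scaling (-0.54) and without PWD_LPS replicate 4 (-0.26), among other alternatives. In untreated cells the differences had been 0.51 for Il12b (not called), 1.60 for Il23a, -0.47 for Il12a and -0.48 for Il27. The differences of responses were 1.49 for Il12b (limma adjusted p = 0.00194), 1.19 for Il23a (0.00013; -0.74 with a pseudocount of 0.1 TPM, the other sign), -2.39 for Il12a (1.5e-09) and -1.80 for Il27 (4e-07).

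Other cytokines differed in both directions. Il15, which maintains natural killer and memory T cells, stood at 6.5, 7.88, 7.18 and 5.68 TPM in PWD_LPS and 64.2, 62.5, 74.6 and 61.9 TPM in B6_LPS (-3.10, SE 0.14, limma adjusted p = 5.7e-17). Tslp, an epithelial-type cytokine that acts on dendritic cells, stood at 5.57, 7.58, 10.5 and 11.5 TPM in PWD_LPS and 0.156, 0.469, 0.389 and 0.483 TPM in B6_LPS (2.80, SE 0.15, limma adjusted p = 3.7e-15), and Csf2, which encodes GM-CSF itself, at 5.74, 4.08, 8.63 and 7.01 TPM in PWD_LPS and 0.241, 0.42, 0.242 and 0.43 TPM in B6_LPS (2.43, SE 0.16, limma adjusted p = 3.3e-13). B6 libraries were below 1 TPM for both. Il18, a substrate of caspase 1, was higher at 43.8 against 9.65 TPM (2.07, SE 0.17, limma adjusted p = 2.6e-11). Il1a (0.62) and the receptor antagonist Il1rn (0.56) were higher by less, and stood 0.28 and 0.23 higher with median-of-ratios scaling.

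The widely used readouts of endotoxin responses separated cleanly only in part. For Il6 the values were 438, 494, 506 and 520 TPM in PWD_LPS and 876, 663, 1113 and 1119 TPM in B6_LPS, with B6 replicate 2 closest to PWD. For Il10 they were 4.07, 4.49, 4.36 and 4.4 TPM and 11.1, 18.1, 8.43 and 9.4 TPM, again without overlap, as in 65.9% of all genes tested. For Tnf they were 585, 695, 680 and 694 TPM and 630, 518, 669 and 631 TPM, with overlapping ranges and no call (0.12, 95% interval -0.12 to 0.36, limma adjusted p = 0.364). Tnf was called lower with median-of-ratios scaling (-0.22) and higher after quantile normalization (0.30), so its direction depends on the scaling.

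Among 27 chemokines 13 were lower and 9 higher in PWD, where 19.0% of all tested genes were lower and 49.7% higher. Cxcl10 (chromosome 5, 92346638 to 92348889), which attracts T cells through CXCR3, stood at 72.9, 101, 91.8 and 84 TPM in PWD_LPS and 1961, 2017, 2537 and 2147 TPM in B6_LPS. That is 24.8 times lower by the means, a log2 difference of -4.62 (SE 0.17, limma adjusted p = 2.7e-17). Cxcl9, which uses the same receptor, stood at 1.38, 1.45, 1.23 and 2.3 TPM in PWD_LPS and 14.8, 7.89, 22.9 and 16 TPM in B6_LPS (-2.59, SE 0.22, limma adjusted p = 1.2e-10). Both were also lower than in B6 before LPS (-4.86 and -0.99), and only Cxcl9 had a called difference of responses (-1.60, limma adjusted p = 0.00042, and -0.71, not called, with a pseudocount of 0.1 TPM; Cxcl10 0.24, 0.503).

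Chemokines that attract other cells showed other patterns. Ccl5 stood at 686, 886, 964 and 984 TPM in PWD_LPS and 4283, 4056, 4394 and 4929 TPM in B6_LPS (-2.34, SE 0.18, limma adjusted p = 5.8e-11), but PWD had gained more log2 units with LPS (difference of responses 2.44, limma adjusted p = 1.9e-07). The monocyte attractants Ccl2, at 156 against 416 TPM (-1.42, SE 0.09, limma adjusted p = 7.2e-14), and Ccl7, at 39.5 against 91 TPM (-1.19, SE 0.11, limma adjusted p = 2.4e-10), had been higher in untreated PWD cells (0.35 and 0.31) and were lower after LPS. Higher in PWD were Ccl20, the ligand of CCR6, at 5.41, 5.12, 9.87 and 9.09 TPM in PWD_LPS and 0, 0, 0.127 and 0.226 TPM in B6_LPS, and Ccl24, which recruits eosinophils, at 21 against 3.18 TPM (2.43, SE 0.26, limma adjusted p = 3.3e-08). Ccl20 was listed at 0 in B6 replicates 1 and 2. The neutrophil attractants split too: Cxcl3 was higher (0.83) and Cxcl1 was not called (0.12, limma adjusted p = 0.366; 0.32 and called after quantile normalization).

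Genes of dendritic cell maturation, which equip the cells to travel to lymph nodes and stimulate T cells, were lower in 25 of 29 members and higher in 1, by a median of -1.39. The homing receptor Ccr7 stood at 54.6, 67.9, 59.5 and 62 TPM in PWD_LPS and 461, 402, 410 and 442 TPM in B6_LPS (-2.79, SE 0.15, limma adjusted p = 7.5e-15). Fscn1, an actin bundler of mature dendritic cells, stood at 50.4, 66.2, 64.1 and 73.3 TPM in PWD_LPS and 345, 346, 315 and 374 TPM in B6_LPS (-2.43, SE 0.17, limma adjusted p = 2.8e-12). The costimulatory molecules Cd40, at 84.1 against 449 TPM (-2.42, SE 0.17, limma adjusted p = 7.9e-12), Cd86, at 38.1 against 147 TPM (-1.93, SE 0.14, limma adjusted p = 1.9e-12), and Cd80, at 41.9 against 87.9 TPM (-1.06, SE 0.15, limma adjusted p = 7.1e-07), were all lower. Of the list's members 5 had a called difference of responses above 0 and 7 below (3 and 13 with median-of-ratios scaling, 9 and 4 after quantile normalization), and 24 were already lower in untreated cells. Over all tested genes 16.0% had such a difference above 0 and 7.50% below, and 19.7% were lower in untreated cells.

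Antigen presentation was lower as well. Of 24 genes of MHC class I presentation 21 were lower and 2 higher (22 and 0 with median-of-ratios scaling). They included the light chain B2m, at 1406, 1604, 1604 and 1536 TPM in PWD_LPS and 2884, 2642, 3151 and 3120 TPM in B6_LPS (-0.94, SE 0.09, limma adjusted p = 3.3e-10), the peptide transporter Tap1, at 63.1 against 212 TPM (-1.74, SE 0.10, limma adjusted p = 3.2e-14), and Nlrc5, the class I transactivator, at 24.5 against 109 TPM (-2.12, SE 0.21, limma adjusted p = 9.6e-09). Of 17 class II genes 13 were lower and 1 higher, H2-Eb1 the most, at 51.3, 61.1, 84.3 and 67.2 TPM in PWD_LPS and 1585, 1268, 1328 and 1306 TPM in B6_LPS (-4.37, SE 0.19, limma adjusted p = 2.7e-15). The class II transactivator Ciita, a gene without close copies, differed by less, at 27.1, 30.3, 35.6 and 34.7 TPM in PWD_LPS and 59.7, 53.7, 47.3 and 45.6 TPM in B6_LPS (-0.68, SE 0.17, limma adjusted p = 0.00152). H2 genes are highly variable between strains and near-identical within them, so their single values are uncertain.

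Of 18 genes of nitric oxide, arginine and itaconate metabolism 12 were higher and 2 lower (7 and 4 with median-of-ratios scaling), and 10 lay above the median of all genes. Over all tested genes 49.7% were higher and 19.0% lower. Nos2 (chromosome 11, 78920787 to 78960254), which makes nitric oxide from arginine, stood at 12.2, 14.3, 16.6 and 15.7 TPM in PWD_LPS and 148, 185, 179 and 171 TPM in B6_LPS (-3.45, SE 0.12, limma adjusted p = 4.3e-19), and Ass1, which recycles citrulline to feed it, at 146, 158, 194 and 177 TPM in PWD_LPS and 675, 557, 676 and 642 TPM in B6_LPS (-1.92, SE 0.12, limma adjusted p = 1.1e-13). The arginases, which split arginine to urea, were higher: Arg2 stood at 127, 134, 134 and 126 TPM in PWD_LPS and 15.7, 17.6, 18.3 and 16.4 TPM in B6_LPS (2.87, SE 0.11, limma adjusted p = 2.1e-18) and Arg1 at 62.4, 40.6, 43.9 and 33.2 TPM in PWD_LPS and 6.94, 12.3, 8.33 and 5.19 TPM in B6_LPS (2.34, SE 0.32, limma adjusted p = 2.3e-06). No library of one strain entered the range of the other in these 4 genes, as in 65.9% of all genes tested. Nos2 had differed by -0.42 before LPS and its difference of responses was -3.03 (SE 0.17, limma adjusted p = 6.6e-13).

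Genes of prostaglandin and leukotriene synthesis split, 9 of 18 higher and 8 lower (8 and 9 with median-of-ratios scaling), where 49.7% of all tested genes were higher and 19.0% lower. Ptgs2, the inducible cyclooxygenase, stood at 120, 136, 129 and 141 TPM in PWD_LPS and 557, 395, 676 and 662 TPM in B6_LPS (-2.09, SE 0.16, limma adjusted p = 1e-11), and Ptges, which forms prostaglandin E2 from its product, was lower at 26.7 against 47.3 TPM (-0.80, SE 0.17, limma adjusted p = 0.00014). The other cyclooxygenase, Ptgs1, was higher at 20.6 against 5.97 TPM (1.65, limma adjusted p = 6.3e-10), as were Hpgds (1.75) and Ptges2 (0.57). The lipoxygenases Alox15 and Alox5 were higher: Alox15 stood at 27.9, 28.5, 37.4 and 47.1 TPM in PWD_LPS and 0.589, 0.534, 0.459 and 0.379 TPM in B6_LPS (4.57, SE 0.30, limma adjusted p = 1.6e-11) and Alox5 at 15.5 against 4.86 TPM (1.49, SE 0.13, limma adjusted p = 9.6e-11). Alox5ap, the activating protein of Alox5, was lower at 61.6 against 100 TPM (-0.69, limma adjusted p = 1e-05). Neither branch thus moved in 1 direction. Hdc, which makes histamine, stood at 5.1, 5.74, 5.92 and 6.7 TPM in PWD_LPS and 84.2, 82, 82.7 and 95.5 TPM in B6_LPS (-3.67, SE 0.17, limma adjusted p = 3.2e-16); before LPS it was higher in PWD (0.41, limma adjusted p = 0.0425), and the difference of responses was -4.08 (SE 0.24, limma adjusted p = 2.4e-12). Hamp, the iron hormone hepcidin, was lower in PWD after LPS, at 0.381, 0.316, 0 and 0.332 TPM in PWD_LPS and 15.1, 23, 16.7 and 18.1 TPM in B6_LPS (-3.93, SE 0.22, limma adjusted p = 3e-14), without a called difference before LPS (-0.41, limma adjusted p = 0.115; difference of responses -3.52, 6.6e-09).

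**Figure D3:**
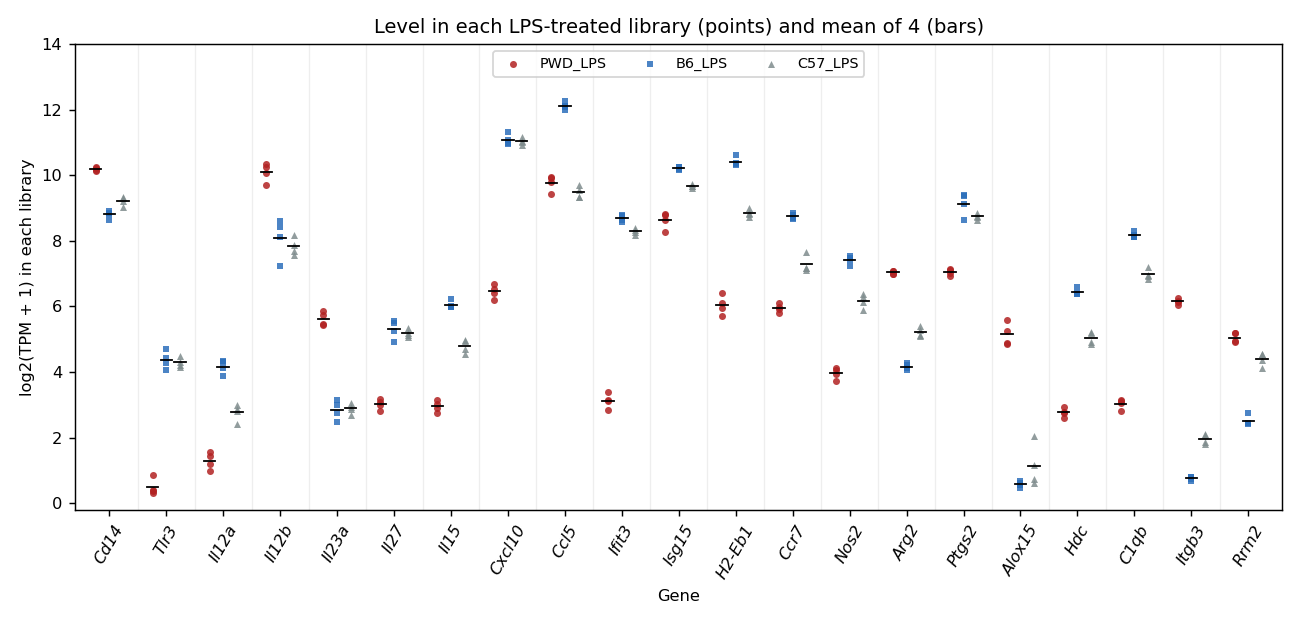
Level of 21 genes in each LPS-treated library, on log2(TPM + 1), with PWD_LPS in red, B6_LPS in blue and C57_LPS in grey, and bars at the mean of 4. PWD points stand apart from B6 points in every gene drawn, as for Ptgs2 (means 131 and 573 TPM), while C57 lies near B6 for Cxcl10 and near PWD for Ccl5. PWD and B6 libraries do not overlap in 65.9% of all genes tested.

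Of the inflammasome and lytic death genes 13 of 24 were lower and 8 higher, with a median of -0.61 against 0.28 over all genes. Of all tested genes 19.0% were lower and 49.7% higher. Casp1, the protease that releases IL-1 beta and IL-18, stood at 28.6, 35.3, 31.7 and 29.7 TPM in PWD_LPS and 121, 104, 119 and 108 TPM in B6_LPS (-1.82, SE 0.11, limma adjusted p = 2.5e-14). Its pore-forming substrate Gsdmd, at 55.2 against 118 TPM (-1.08, SE 0.12, limma adjusted p = 1.9e-08), and Casp4, the intracellular LPS sensor also known as caspase 11, at 72 against 135 TPM (-0.90, SE 0.10, limma adjusted p = 1.8e-08), were lower. Nlrp3, the sensor upstream of Casp1, was higher, at 232, 226, 219 and 218 TPM in PWD_LPS and 123, 125, 145 and 125 TPM in B6_LPS (0.79, SE 0.10, limma adjusted p = 8.1e-08). Mlkl, the executioner of necroptosis, stood at 12.3 against 43.5 TPM (-1.75, SE 0.11, limma adjusted p = 5.1e-14) after LPS and was not called before it (-0.10, limma adjusted p = 0.421).

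Complement genes moved in both directions, 7 of 18 higher and 9 lower (4 and 10 with median-of-ratios scaling, 4 and 9 after quantile normalization). The shares over all tested genes were 49.7% higher and 19.0% lower. C1qa, C1qb and C1qc, the 3 chains that start the classical pathway, were all lower, C1qb at 6.01, 7.29, 7.63 and 7.86 TPM in PWD_LPS and 311, 274, 290 and 279 TPM in B6_LPS (-5.15, SE 0.13, limma adjusted p = 3.6e-22). Ptx3, a pentraxin that binds C1q, had the largest fall of any named gene, at 2.17, 0.757, 1.5 and 1.35 TPM in PWD_LPS and 983, 882, 1110 and 940 TPM in B6_LPS (-8.67, SE 0.14, limma adjusted p = 1.2e-25). The differences of C1qb and Ptx3 were present before LPS (-5.41 and -7.46), and that of Ptx3 was larger after it (difference of responses -1.22, limma adjusted p = 8.5e-05). C3 was lower by less, at 109 against 253 TPM (-1.21, SE 0.12, limma adjusted p = 2.7e-09).

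Several surface and matrix genes were expressed in PWD and near 0 in B6. Itgb3, an integrin chain that binds vitronectin and fibrinogen, stood at 75.7, 70.9, 68.8 and 65.6 TPM in PWD_LPS and 0.686, 0.588, 0.752 and 0.737 TPM in B6_LPS (5.40, SE 0.10, limma adjusted p = 8.6e-25), and its difference of responses was 2.55 (limma adjusted p = 9.6e-13). Aqp3, a water and glycerol channel, stood at 106, 140, 155 and 130 TPM in PWD_LPS and 0.97, 1.71, 0.787 and 1.03 TPM in B6_LPS (5.98, SE 0.16, limma adjusted p = 1e-21). The glucose transporter Slc2a3 stood at 29, 36, 38.6 and 40.9 TPM in PWD_LPS and 1.9, 1.23, 1.2 and 1.48 TPM in B6_LPS (3.92, SE 0.16, limma adjusted p = 1.2e-17). Some genes gained more with LPS in PWD: Krt6b, a keratin, reached 32.7, 34, 36.6 and 33.2 TPM (difference of responses 3.69), Has1, which makes hyaluronan, 25.1, 21.6, 26 and 22.1 TPM (3.43), and Loxl2, a collagen cross-linker, 20.9, 20.7, 22.5 and 24 TPM (3.18). Their highest B6_LPS library was at 0.122, 1.24 and 0.861 TPM.

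Other genes were present in B6 and near 0 in PWD. Leaving out pseudogenes and models without a name, 18 genes stood under 1 TPM in every PWD_LPS library and at 10 TPM or more in every B6_LPS library, and 20 showed the reverse. Apol7c, an apolipoprotein L of dendritic cells, stood at 0.0884, 0.153, 0.342 and 0.41 TPM in PWD_LPS and 207, 184, 153 and 165 TPM in B6_LPS (-7.16, SE 0.12, limma adjusted p = 9.5e-26). Asgr2, a chain of the asialoglycoprotein receptor, stood at 0.28, 0.797, 0.498 and 0.596 TPM in PWD_LPS and 64.2, 68.1, 52.5 and 59.9 TPM in B6_LPS (-5.34, SE 0.14, limma adjusted p = 1.2e-21), and Clu, the chaperone clusterin, at 0.0572 against 25.6 TPM (-4.65, SE 0.19, limma adjusted p = 4.5e-17). Gpr65, an acid-sensing receptor, stood at 0.767 against 15.8 TPM (-3.23, SE 0.14, limma adjusted p = 8.2e-17). Slc6a4, the serotonin transporter, stood at 0.334 against 13.6 TPM (-3.45, SE 0.13, limma adjusted p = 1.3e-18), and C57 cells held 1.36 TPM. Chil3, Bcl2a1a, Klk1b11, Trim12a and Apol9b were also among the largest falls, and Lyz1, Ear1, Rnase2a, Gbp2b, Eno1b, Tpm3-rs7 and Stfa1 among the largest rises. Each has near-identical copies in the genome, so these values are uncertain. The value of Apol7c, of the same family as Apol9b, is uncertain too.

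Cell cycle genes were higher in 33 of 37 members and lower in 3 (32 and 3 with median-of-ratios scaling), by a median of 1.26. Rrm2, which supplies nucleotides for DNA synthesis, stood at 35.4, 35.3, 29.1 and 29.6 TPM in PWD_LPS and 4.5, 4.3, 4.43 and 5.76 TPM in B6_LPS (2.54, SE 0.11, limma adjusted p = 6e-17). Mki67, the proliferation marker, stood at 50.2, 57.5, 49.2 and 52.4 TPM in PWD_LPS and 20.4, 19.5, 18.4 and 20.1 TPM in B6_LPS (1.37, SE 0.11, limma adjusted p = 1.6e-11), and Cdc20, needed to leave mitosis, at 14.9, 15, 12.7 and 13.9 TPM in PWD_LPS and 2.72, 3.01, 2.96 and 2.55 TPM in B6_LPS (1.99, SE 0.12, limma adjusted p = 2.5e-14). The 3 members lower in PWD were the cyclin Ccnd1 (-1.76, SE 0.12, limma adjusted p = 8.4e-13), Pcna (-0.42), and the inhibitor Cdkn1a (-1.16). Of the list 21 members had a called difference of responses above 0 and 1 below (21 and 9 after quantile normalization). The shares over all tested genes were 16.0% above 0 and 7.50% below. Ccnb1, a mitotic cyclin, was not called in untreated cells (0.04) and stood at 20.2 against 6.11 TPM after LPS (1.58, SE 0.12, limma adjusted p = 6.7e-12).

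Lysosomal and lipid genes were mostly higher, where 49.7% of all tested genes were called higher and 19.0% lower. Of 26 lysosome genes 18 were higher and 4 lower (16 and 8 with median-of-ratios scaling), and 17 lay above the median of all genes. The protease Ctsd had the highest mean of the list in PWD, at 4406, 4791, 4447 and 4390 TPM in PWD_LPS and 924, 756, 962 and 848 TPM in B6_LPS (2.37, SE 0.10, limma adjusted p = 3e-17), while Ctss, which trims the class II chaperone, was lower, at 633, 659, 613 and 594 TPM in PWD_LPS and 1119, 920, 1188 and 1144 TPM in B6_LPS (-0.80, SE 0.09, limma adjusted p = 2.8e-08). Of 22 genes of lipid efflux and fatty acid synthesis 14 were higher and 4 lower (13 and 6 with median-of-ratios scaling), and 14 lay above the median of all genes. The sterol-sensing receptor Nr1h3, LXR alpha, stood at 25.1, 27, 23.6 and 26.1 TPM in PWD_LPS and 4.17, 3.19, 5.74 and 5.74 TPM in B6_LPS (2.24, SE 0.14, limma adjusted p = 1.3e-13), and the desaturases Fads1 at 24.2 against 2.6 TPM (2.81, SE 0.10, limma adjusted p = 1e-18) and Scd1 at 18 against 3.14 TPM (2.20, SE 0.15, limma adjusted p = 6e-13). Apoe, a carrier of exported lipid, was lower, at 38.9, 22.2, 20.8 and 21.8 TPM in PWD_LPS and 58.6, 60.2, 85.6 and 96 TPM in B6_LPS (-1.52, SE 0.26, limma adjusted p = 3e-05).

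Genes of cholesterol synthesis and uptake were higher in 13 of 24 members and lower in 2, but in 10 and 7 with median-of-ratios scaling, around a median of 0.31 that is close to that of all genes. Dhcr7, the last step, stood at 11.5, 12.1, 8.09 and 9.45 TPM in PWD_LPS and 0.613, 0.6, 0.611 and 0.573 TPM in B6_LPS (2.80, SE 0.11, limma adjusted p = 7.4e-18). Before LPS 19 members had been higher and 1 lower, and 11 had a called difference of responses below 0 and 1 above. Over all tested genes 37.2% were higher and 19.7% lower before LPS, and 7.50% had such a difference below 0 and 16.0% above. Nuclear genes of oxidative phosphorylation were higher in 19 of 30 and lower in 2, which became 8 and 11 with median-of-ratios scaling, so their direction depends on it. Nnt, the mitochondrial transhydrogenase known for a deletion in some B6 substrains, stood at 19.3, 19.1, 16.8 and 17.6 TPM in PWD_LPS and 3.06, 2.03, 3.27 and 2.41 TPM in B6_LPS (2.39, SE 0.13, limma adjusted p = 6.7e-15).

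The chains of the iron store ferritin, both among the 10 called genes of highest level, moved apart. Fth1, the ferritin heavy chain, stood at 21163, 21880, 21524 and 22089 TPM in PWD_LPS and 12418, 12600, 12260 and 12689 TPM in B6_LPS (0.79, SE 0.06, limma adjusted p = 1.4e-11), and Ftl1, the light chain, at 2007, 1958, 1959 and 1872 TPM in PWD_LPS and 6312, 6058, 5814 and 5936 TPM in B6_LPS (-1.63, SE 0.07, limma adjusted p = 2.5e-17). Both genes have many processed copies in the genome, so their values are uncertain. Ribosomal protein genes, of which 20 of 32 were lower and 3 higher, have such copies too (30 lower and 0 higher with median-of-ratios scaling, 15 and 7 after quantile normalization).

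Much of the strain difference after LPS was already there without it. Untreated, 4930 genes were called higher in PWD than in B6 (37.2%) and 2614 lower (19.7%); with median-of-ratios scaling 4181 were higher and 3998 lower. The split also turned between male and female libraries: 2799 higher and 3627 lower with mice 1 and 2, and 6611 and 1682 with mice 3 and 4. Number and sex cannot be told apart there, and structural RNA in PWD_Untreated ran from 28.8% to 41.9% of TPM. Of the genes called after LPS 68.0% were called in the same direction without it, which is 82.0% of those called without it: 4352 were higher and 1832 lower in both. A further 2713 were called after LPS alone, which is not a test of a difference.

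The difference of responses was called for 3111 genes (23.5%), 2117 above 0 and 994 below. The split was 1980 and 2226 with median-of-ratios scaling, and 4463 and 1179 without structural RNA. Some genes were called in opposite directions with and without LPS. In all, 107 were higher in PWD after LPS and lower before, among them the phosphatases Dusp4 (-0.35 before, 1.33 after) and Dusp6 (-0.63 and 1.00), which switch off MAP kinases, the junction protein Cldn1 (-1.02 and 0.98), and Stambpl1, a deubiquitinase (-0.37 and 1.98). A further 87 went the opposite way, among them Net1, a regulator of RhoA (0.98 before, -1.15 after), Itpr1, a calcium channel (0.45 and -1.42), and Snn (1.12 and -1.26). Stambpl1 stood at 37.9, 38.7, 35.7 and 37.7 TPM in PWD_LPS and 9.45, 7.21, 9.97 and 8.56 TPM in B6_LPS after LPS, and Net1 at 19.4, 20.6, 18.4 and 20.7 TPM in PWD_LPS and 45.9, 43.3, 46.6 and 44.2 TPM in B6_LPS. In both the strains did not overlap, in opposite directions, as they did not in 65.9% of all genes tested.

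**Figure D4:**
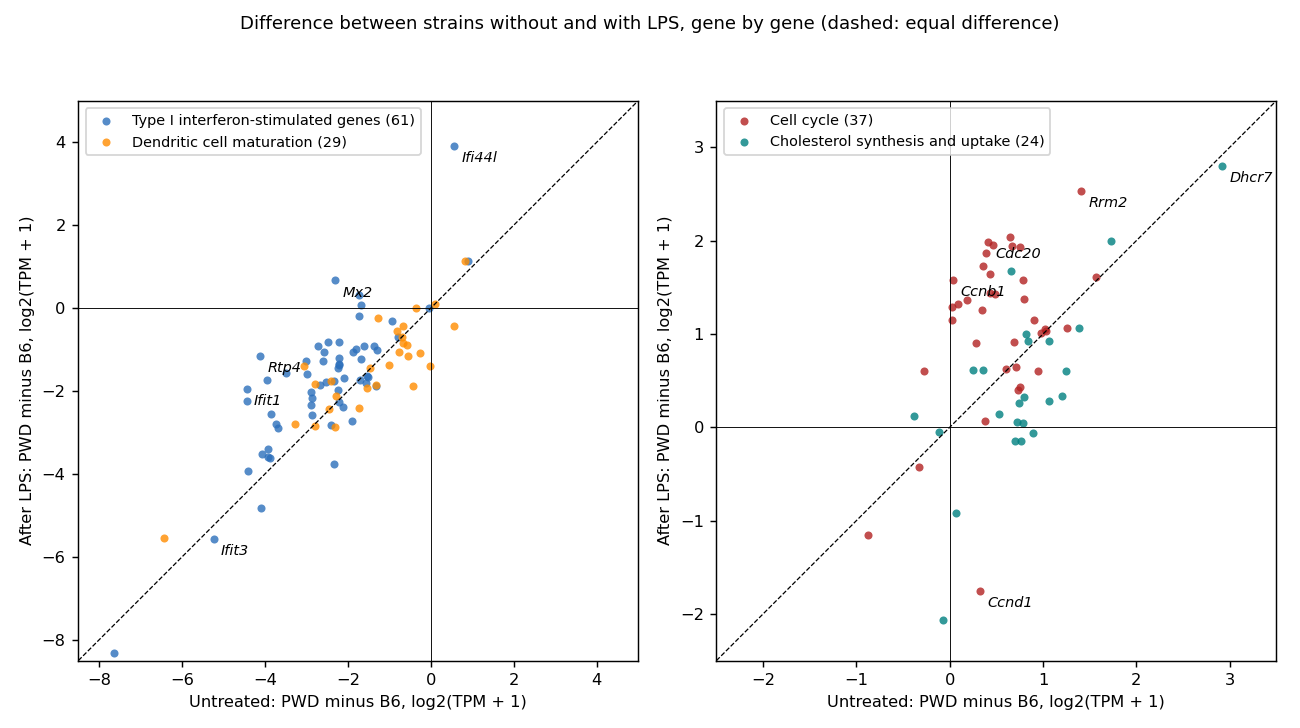
Strain difference without LPS (horizontal) and after it (vertical), on log2(TPM + 1), for 4 gene lists, 1 point per tested gene. Interferon-stimulated genes lie mostly below 0 on both axes and mostly above the dashed line of equal difference (34 of 61 called), cell cycle genes lie mostly above it (21 of 37 called) and cholesterol genes mostly below it (11 of 24 called). Over all tested genes 16.0% were called above it and 7.50% below.

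Set against C57 in place of B6, the same 4 PWD_LPS libraries gave 7179 called genes (54.2%), 3236 higher (24.4%) and 3943 lower (29.8%), around a median of -0.05. The split was 4339 and 4067 with median-of-ratios scaling, 3467 and 2814 with mice 1 and 2 alone, and 2327 and 4282 with mice 3 and 4 alone. The 2 comparisons share the PWD_LPS libraries, so their values are set side by side without a measure of likeness. Interferon-stimulated genes were lower in 53 of 61 members against B6 and in 50 against C57. Ifi200 genes were lower in 12 of 13 members in both.

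Other lists read differently against the other strain. Cell cycle genes were higher in 33 and lower in 3 of 37 against B6, and higher in 6 and lower in 17 against C57, with medians of 1.26 and -0.25. Maturation genes were lower in 25 and higher in 1 of 29 against B6, and lower in 9 and higher in 11 against C57. Class II genes were lower in 13 and higher in 1 of 17 against B6, and lower in 8 and higher in 5 against C57. Single genes showed the same: the C57_LPS libraries held 646, 828, 749 and 652 TPM of Ccl5 and 37.4, 32.4, 78.3 and 38 TPM of Arg1, values that overlap those of PWD (log2 differences of 0.29 and 0.01, limma adjusted p = 0.183 and 0.986). For Il23a, Cxcl10 and Ifit3 the C57 means were 6.46, 2103 and 313 TPM, and PWD differed from them by 2.74, -4.58 and -5.17.

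**Figure D5:**
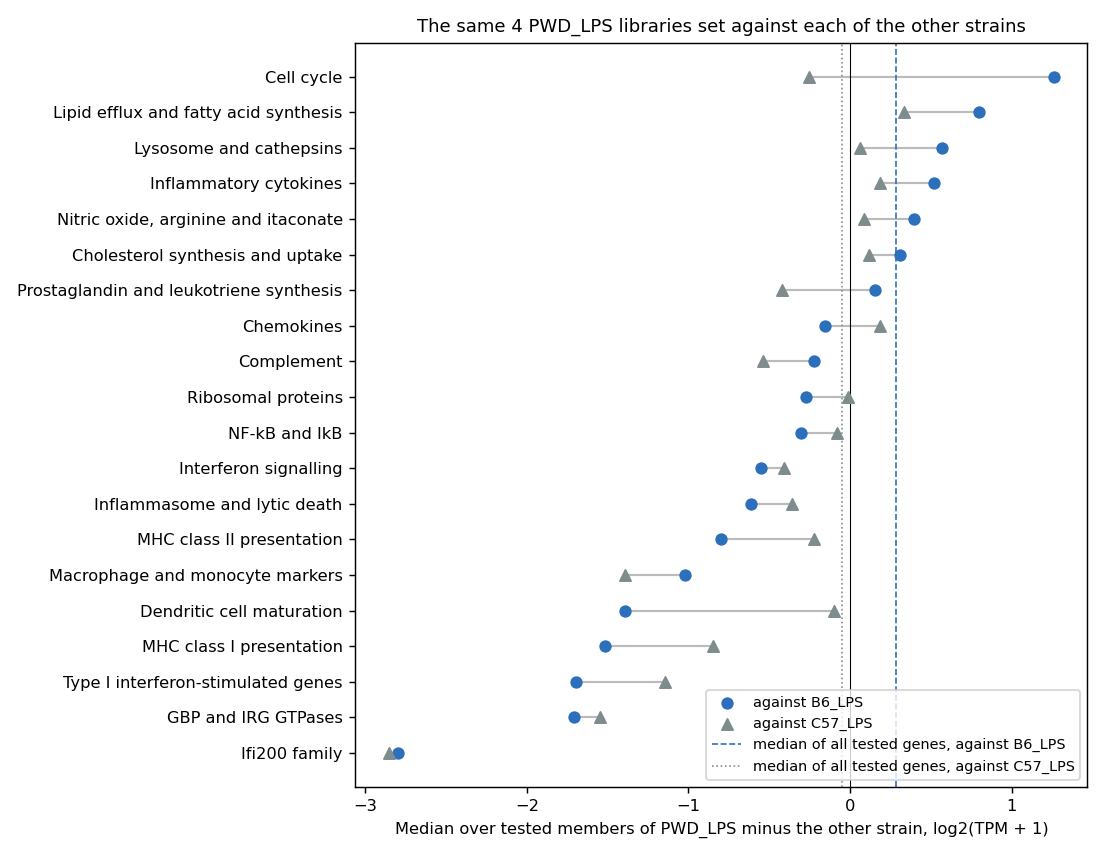
Median over the tested members of 20 gene lists of PWD_LPS minus B6_LPS (circles) and PWD_LPS minus C57_LPS (triangles), on log2(TPM + 1), with the medians of all genes as lines at 0.28 and -0.05. The cell cycle list is at 1.26 and -0.25, and the Ifi200 family at -2.80 and -2.86.

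Markers of other cell types that marrow cultures can hold also differed between PWD_LPS and B6_LPS, and their part in the differences above was not tested. Their counts stand beside shares over all tested genes of 49.7% higher and 19.0% lower. Eosinophil granule genes were higher in PWD: Prg2 stood at 166, 145, 63 and 106 TPM in PWD_LPS and 0.793, 1.97, 1.94 and 1.32 TPM in B6_LPS (5.54, SE 0.46, limma adjusted p = 2.5e-09) and Epx at 27.6, 28.9, 17.2 and 23.6 TPM in PWD_LPS and 0.0871, 0.175, 0.599 and 0.155 TPM in B6_LPS (4.33, SE 0.17, limma adjusted p = 7.4e-18), and the eosinophil receptor genes Siglecf (1.78) and Ccr3 (2.20) were higher too. Of the 13 tested markers of mast cells, basophils and eosinophils 7 were higher and 2 lower (quantile normalization gave 7 and 5), and their summed level ran from 215 to 335 TPM in PWD_LPS and 98.1 to 109 TPM in B6_LPS, where Hdc is one of the markers. The mast cell gene Cpa3 was at 0.324 and 0.633 TPM. Of 20 neutrophil markers 9 were higher and 7 lower (8 and 9 after quantile normalization), with sums of 1714 to 2471 and 1668 to 1946 TPM. The granule gene Camp was higher (3.41, SE 0.32, limma adjusted p = 9e-09), S100a8 lower (-2.28, SE 0.16, limma adjusted p = 1.5e-11) and Mpo near 0 in both strains (0.333 and 0.441 TPM).

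Macrophage and monocyte markers were lower in 12 of 18 members and higher in 4, with sums of 6460 to 6955 TPM in PWD_LPS and 6955 to 8563 TPM in B6_LPS. Among the higher members were Cd14, at 1172 against 448 TPM (1.39), Cd68, at 364 against 166 TPM (1.12), and Mrc1, at 38.4 against 17.3 TPM (1.15). Of the lower members, Fcgr1, the high-affinity IgG receptor, stood at 7.92, 11.1, 12.4 and 9.51 TPM in PWD_LPS and 162, 163, 178 and 187 TPM in B6_LPS (-3.96, SE 0.14, limma adjusted p = 4.6e-19). Conventional dendritic cell markers were lower in 7 of 17 and higher in 4 (11 and 3 with median-of-ratios scaling, 12 and 5 after quantile normalization), with sums of 2427 to 2968 and 2791 to 3180 TPM. The lineage factor Irf8 stood at 11.2, 12.2, 12.1 and 11.4 TPM in PWD_LPS and 96.3, 82.5, 84.4 and 88 TPM in B6_LPS (-2.80, SE 0.10, limma adjusted p = 4.2e-19) and Zbtb46 at 6.26 against 15.3 TPM (-1.18, SE 0.14, limma adjusted p = 3.6e-08), whereas Sirpa was higher at 553 against 220 TPM (1.33, SE 0.09, limma adjusted p = 2.3e-13). Irf4, another marker of this list, was lower at 38.3 against 85.7 TPM (-1.155, limma adjusted p = 2.7e-08). All 8 tested B cell and plasmacytoid markers were lower, with sums of 105 to 134 and 368 to 436 TPM, most of it from Bst2, itself interferon-stimulated (-1.64, SE 0.10, limma adjusted p = 1.5e-13). Of 12 stromal, endothelial and erythroid markers 6 were higher and 3 lower (3 and 4 after quantile normalization), with sums that overlapped (26.7 to 32.4 and 23.2 to 31.9 TPM), and of 3 tested T and NK cell markers 1 was higher and 2 were lower.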

How the data were processed

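RNA was sequenced from LPS-treated and untreated marrow-derived dendritic cells, 4 libraries per group, each from the culture of 1 mouse. The deposited table holds TPM per gene symbol for 24 libraries. Stranded libraries were made from 1 ug of total RNA per the labels' protocols, and STAR, edgeR and mm10 are named without versions in the submitters' processing notes; the tool and annotation behind the TPM were not given in the sources used here. Of 55401 rows, 217 share a symbol and were summed, leaving 55291 symbols.

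From these, log2(TPM + 1) of the 13246 genes with at least 1 TPM in 4 libraries or more was fitted with limma 3.58.1 in R 4.3.3 (6 group means, 18 residual degrees of freedom, trend and robust empirical Bayes, two-sided, Benjamini-Hochberg adjusted p under 0.05). Simulated data had 200 of 13246 genes changed, in random directions, with independent normal noise and no median shift. There the test recovered 53%, 95% and 98.5% of genes changed by 0.5, 1 and 2 log2 units between PWD_LPS and B6_LPS. The real data, with 68.6% of genes called around a shifted median, differ from that setting, so these rates do not carry over to them. TPM do not record depth, so no counting error is given, and p-values measure the spread between these cultures. Alternatives changed the pseudocount, filter, scaling, moderation, libraries, block and call rule.

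The genes and lists were chosen with earlier results of these data known. The naming rule took the largest differences among genes of at least 10 TPM without overlap, standard endotoxin readouts, up to 4 called members per list, the 10 highest called genes, the extreme differences of responses, sign changes and genes under 1 TPM in one strain. Other genes named were picked after their values were seen. Promoters of 45 of the 61 interferon-stimulated genes and 9419 of the tested genes were matched in the RefSeq table, under the 80% needed, so a comparison of motif shares between sets is void. A few genes that the naming rule covers are not reported here.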

Additional observations from a re-analysis of the deposited data

Results flagged for a closer look

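Single libraries stood apart from the other 3 of their group in 20 of the 308 gene and group combinations looked at, by Dixon's gap against its 95% critical value for 4 samples; chance flags about 1 in 20. PWD_LPS replicate 1 was the library in 7 of them, with 38.9 TPM of Apoe, 9.44 of Cd180, 62.8 of Cd40, 271 of Cxcl1, 63 of Ifnar2, 0.835 of Tlr3 and 585 of Tnf. The other PWD_LPS cases were Apol9b at 0.0544 TPM in replicate 4 and Ctsd at 4791 TPM in replicate 2.

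In B6_LPS, replicate 1 stood apart for Clec9a (0.0935 TPM) and Tlr1 (12.1 TPM), and replicate 2 for Fads1 (2.1 TPM), Itgax (208 TPM) and Scd1 (2.59 TPM). Replicate 3 did so for Ccl2 (395 TPM), Epx (0.599 TPM), Ifit1 (756 TPM) and Nlrp3 (145 TPM), and replicate 4 for Hdc (95.5 TPM) and Rrm2 (5.76 TPM).

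The response to LPS differed between the strains by the limma test of the difference itself for 18 of the genes whose difference of responses is given. PWD gained more log2 units, which need not be more TPM, for Krt6b (3.69 log2 units), Has1 (3.43), Loxl2 (3.18), Rtp4 (2.96), Itgb3 (2.55), Ifit1 (2.5), Ccl5 (2.44), Isg15 (1.91), Il12b (1.49) and Il23a (1.19, of the other sign with a pseudocount of 0.1 TPM). It gained less for Hdc (-4.08), Hamp (-3.52), Nos2 (-3.03), Il12a (-2.39), Il27 (-1.80), Cxcl9 (-1.60, not called with a pseudocount of 0.1 TPM), Cd180 (-1.58) and Ptx3 (-1.22).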

How the results depend on the processing

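All 4 counts of called genes stayed within 1.5 times under the other pseudocount, filters, moderation, a term for sex and leaving out libraries: with each library left out in turn they ran from 8612 to 8826 for PWD_LPS against B6_LPS, 6677 to 6923 against C57_LPS, 6979 to 7796 without LPS and 2683 to 3462 for the difference of responses. With a difference of 1 log2 unit or more also asked for, they fell to 2893, 1930, 2223 and 617. TPM recomputed without structural RNA gave 5642 differences of responses, 4463 above 0 and 1179 below, and median-of-ratios scaling 1980 above and 2226 below; the cause was not tested. With the replicate number as a block the counts were 9083, 7169, 7542 and 3167. Same-numbered PWD_LPS and B6_LPS libraries deviated together with r of 0.118, -0.009, 0.040 and 0.080. LPS and untreated libraries of one number did so with r of 0.114, 0.086, 0.103 and 0.146 in PWD, where each library correlated best with its own number, and 0.171, 0.168, 0.051 and 0.106 in B6, where 2 of 4 did. The labels do not say that a number marks one mouse, and not every r was over 0.1, so the numbers were not taken as pairs.

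Of 154 named genes followed through the alternatives, 138 kept direction and call under each alternative fit that gave a value for them. The rule of 1 log2 unit was not among these: of the 141 called, 23 differ by less and would lose their call. Genes not called that changed sign with median-of-ratios scaling were Adgre1 (-0.10) and Cxcl1 (-0.22), still not called, and Csf1r (-0.24), Ifnar2 (-0.22), Tnf (-0.22) and Tnfaip3 (-0.23), which were then called lower. By mice, Csf1r was -0.032 with 1 and 2, Cxcl1 -0.021 with 3 and 4, and Tlr4 0.068 with 1 and 2; leaving out libraries moved Tlr4 between -0.088 and 0.039. Among differences of responses, Ifit3 turned to 0.77 with a pseudocount of 0.1 TPM, 0.092 after quantile normalization and 0.056 without structural RNA, and Il23a to -0.74 with that pseudocount.

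The counts of list members with a called difference of responses under other mice and scalings were chosen after seeing the data. Without structural RNA they were 44 above 0 and 3 below for interferon-stimulated genes and 10 and 10 for maturation genes. For cholesterol genes they were 1 and 7 with mice 3 and 4, and for maturation genes 8 and 4 with mice 1 and 2 and 4 and 10 with mice 3 and 4.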
